A study of Mus musculus with 10 samples.

Results

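FOS and JUN proteins pair to form the transcription factor AP-1, and the proteins of the EGR family are zinc finger factors. Many of their genes, such as *Fos* and *Egr1*, are classical immediate early genes, as is *Ier2*. The 10 genes examined were *Fos*, *Fosb*, *Fosl1*, *Fosl2*, *Jun*, *Junb*, *Jund*, *Egr1*, *Egr2* and *Ier2*, taken by symbol from a table of 53801 genes. All 10 were in the table, and 8 had enough counts to be tested. RNA was sequenced from AtT20/D16v-F2 cells, a mouse pituitary tumour line of corticotroph cells, which make the ACTH precursor POMC. Cells stably carrying a lentivirus for *Creb3l1*-shRNA1, directed against the transcription factor gene *Creb3l1*, were compared with cells stably carrying one for a non-targeting control shRNA, with 5 libraries from each line. Both lines were grown in the same serum-containing medium, and no stimulus is named in the sample descriptions. Each shRNA was represented by 1 stable line, so the effect of the shRNA and other differences between the lines cannot be told apart, and the labels do not say whether the 5 libraries came from separate cultures, so the p-values measure the spread between these libraries.

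Immediate early genes are induced within minutes of a stimulus, without new protein synthesis, through factors such as SRF with its ELK partners and CREB that already sit at their promoters. JUN proteins bind DNA as pairs with each other or with FOS proteins, whereas FOS proteins need a JUN partner. EGR proteins bind GC-rich sites and are held back by the corepressors NAB1 and NAB2. In corticotrophs, AP-1 and the NR4A receptors act downstream of corticotrophin-releasing hormone, and unlike *Fos* or *Egr1*, *Jund* is known for steady expression in unstimulated cells.

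Many immediate early genes carry elements for CREB-like and SRF-type factors close to the start of transcription. The promoters of 5 of the genes are shown, which had a RefSeq entry near the start of a principal transcript. Each is the 250 bases before the start site in RefSeq, on GRCm38.p6, written 5′ to 3′ on the strand of the gene, and capitals mark matches to the motifs searched.
Fos (chr12:85473640-85473889, plus strand): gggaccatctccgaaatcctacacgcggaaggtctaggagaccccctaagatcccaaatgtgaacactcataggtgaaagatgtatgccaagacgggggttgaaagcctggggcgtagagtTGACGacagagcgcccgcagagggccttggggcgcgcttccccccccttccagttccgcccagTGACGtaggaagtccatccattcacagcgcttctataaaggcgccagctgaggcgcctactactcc
Fosb (chr7:19310046-19310295, minus strand): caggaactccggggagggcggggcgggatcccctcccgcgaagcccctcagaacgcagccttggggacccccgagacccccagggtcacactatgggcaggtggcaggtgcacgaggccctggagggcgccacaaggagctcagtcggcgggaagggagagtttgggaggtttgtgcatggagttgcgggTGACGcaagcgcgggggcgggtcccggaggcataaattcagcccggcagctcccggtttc
Jun (chr4:95052223-95052472, minus strand): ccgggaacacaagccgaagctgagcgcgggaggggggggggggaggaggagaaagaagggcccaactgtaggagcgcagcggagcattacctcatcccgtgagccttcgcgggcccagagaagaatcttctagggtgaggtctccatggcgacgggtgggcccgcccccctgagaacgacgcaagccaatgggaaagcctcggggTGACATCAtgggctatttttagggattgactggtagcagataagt
Junb (chr8:84978749-84978998, minus strand): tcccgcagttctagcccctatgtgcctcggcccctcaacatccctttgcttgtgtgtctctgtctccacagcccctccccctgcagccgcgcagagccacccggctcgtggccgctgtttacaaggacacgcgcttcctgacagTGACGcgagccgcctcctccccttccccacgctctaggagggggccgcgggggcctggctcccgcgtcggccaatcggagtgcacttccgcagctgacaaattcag
Egr2 (chr10:67537619-67537868, plus strand): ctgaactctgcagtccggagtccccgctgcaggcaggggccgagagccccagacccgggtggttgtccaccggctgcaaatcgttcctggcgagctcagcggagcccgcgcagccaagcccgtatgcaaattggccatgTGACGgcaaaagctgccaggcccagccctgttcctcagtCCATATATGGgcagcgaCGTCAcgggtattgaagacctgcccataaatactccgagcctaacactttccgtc
Both strands were searched for the cAMP response element (CRE) TGACGTCA, its half-site TGACG, the variant AP-1 site TGACATCA of the *Jun* promoter, the AP-1 site TGANTCA, the G-box core GACGTG and the CArG box, the site of SRF. A full CRE would also hold the half-site on both strands. *Fos* held the half-site at 2 places in this window, from -129 to -125 and from -66 to -62, counted back from the start site. *Fosb* held it from -60 to -56, and *Junb* from -106 to -102. *Jun* held the variant AP-1 site from -45 to -38. *Egr2* held a CArG box from -72 to -63, between half-sites from -111 to -107 on the plus strand and from -55 to -51 on the minus strand. The gene has 5 promoter entries, and the window shown is one that begins at the start of a principal transcript. Of the 32851 RefSeq promoters of this length, 17.8% held the half-site, 2.93% the variant AP-1 site, 1.47% a CArG box, 6.75% an AP-1 site, 5.20% the G-box core and 1.55% a full CRE. The G-box core, a full CRE and the AP-1 site TGANTCA matched in none of the 5 windows, and these matches are a description of the sequence, with no measurement of binding. Sequence outside the 250 bases was not searched for these genes, so a motif missing from a window, such as a CArG box, may lie outside it.

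The libraries held between 17420698 and 22205107 counts, and 14336 genes were tested across the whole table with edgeR's quasi-likelihood test at an adjusted p under 0.01. The targeted gene *Creb3l1* had 3689 ± 148 normalised counts (SD, n = 5) in the non-targeting line and 1090 ± 59.2 in the *Creb3l1*-shRNA1 line, with no overlap. A normalised count is a count scaled to the mean effective library size of 20276368 counts. The 6 corticotroph markers were all detected, the lowest being *Crhr1* with 17.1 to 43.6 normalised counts over the 10 libraries. *Pomc* led, with 126260 to 137530 in the non-targeting line and 87908 to 95082 in the *Creb3l1*-shRNA1 line. Of the 6, 5 passed the test (83.3%, against 40.7% of all genes tested). *Neurod1* and *Pitx1* were higher, with log2 fold changes of 0.62 and 0.36. *Pomc* (-0.51), *Pcsk1* (-0.46) and *Tbx19* (-0.27) were lower. The study's quantitative PCR found no change in *Pomc* mRNA. The 10 markers of other pituitary cells summed to 85.5 to 105.2 against 58.75 to 82.7 normalised counts, with 4 of them, *Prl* among them, at 0 in every library. Fibroblast markers summed to 844.1 to 1227 against 985.8 to 1776 (1 of 6 at 0), and leukocyte markers to 1.22 to 7.04 against 0.948 to 7.49 (4 of 6 at 0). The fibroblast sum came almost wholly from the collagen genes on the list, which did not pass the test. The other fibroblast markers had at most 12.8 normalised counts in any library. The part of these differences in the results was not tested. *Gm42418*, a non-coding RNA, accounted for 4.13% of reads in non-targeting replicate 3 and for 0.107% to 0.129% in the remaining controls, and the calls for the 4 genes called below were the same without that library.

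Between the lines, *Egr2* was higher and *Jund*, *Jun* and *Fosl2* were lower in *Creb3l1*-shRNA1 cells, while *Fos*, *Fosb*, *Junb* and *Ier2* did not pass the test. So 4 of the 8 genes tested were called, where 40.7% of all genes tested were. The 1 higher gene compares with 20.6% of all genes called higher, and the 3 lower genes with 20.1% called lower. *Egr2*, *Jund* and *Jun* did not overlap between the lines, as was true of 36.0% of all genes tested. Calls were more frequent among abundant genes, at 53.7% of the 5257 genes whose mean reached 1000 normalised counts, a range that holds the 4 called members. No other tested member reached that mean, so every member in this range was called. With so few members, the share called was not tested against the background. The RNA was measured in bulk, so fewer expressing cells and less RNA per cell cannot be told apart. The differences were small: none of the 8 reached 1.5-fold, and their median log2 fold change was -0.07, against -0.0025 over all genes tested.

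**Figure D1:**
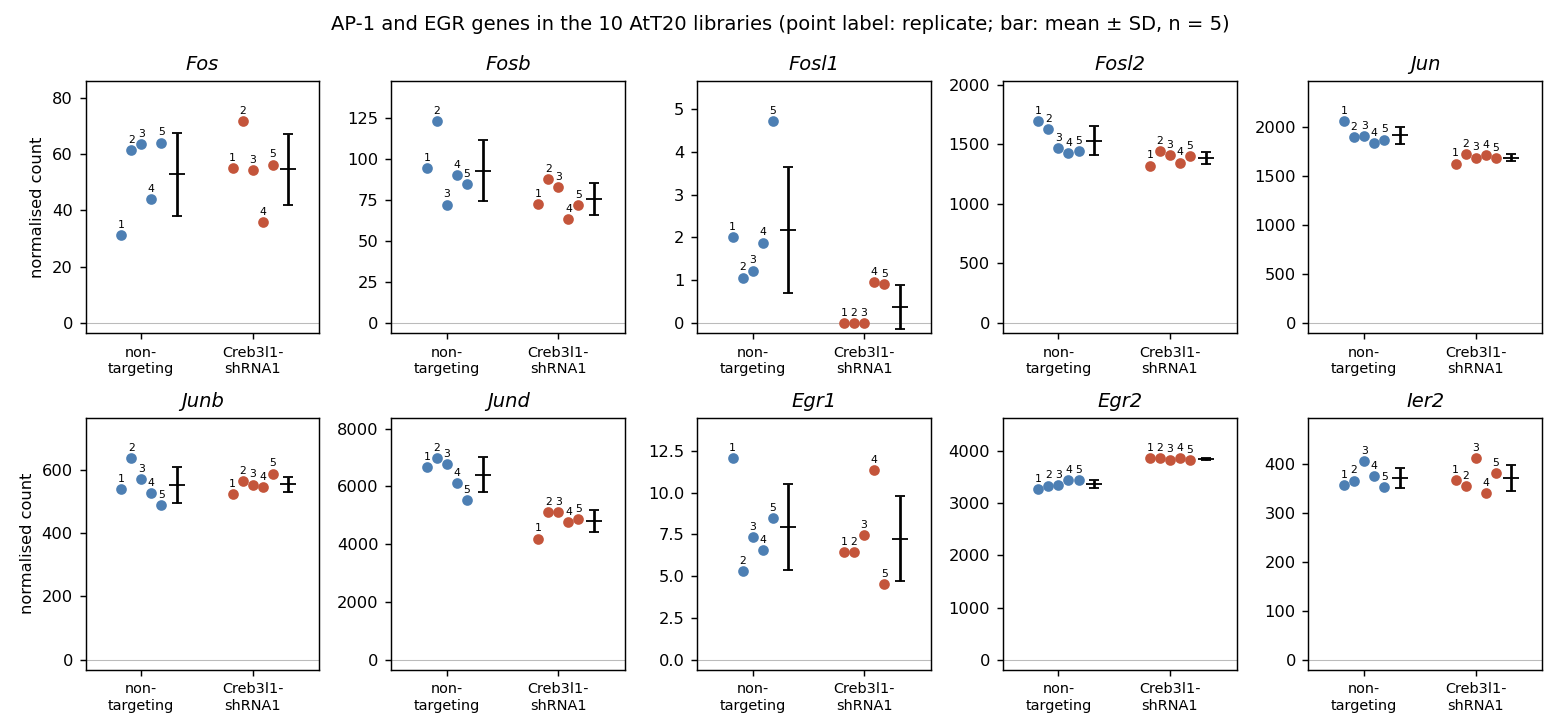
Normalised count (y axis, linear, with a scale of its own in each panel) of the 10 genes in the 5 non-targeting libraries (blue) and the 5 Creb3l1-shRNA1 libraries (red), each point labelled by its replicate number, with the mean and SD in black. The points of Jund, Jun and Egr2 are separated by line, those of Fosl2 overlap slightly (the lowest control is 1426 and the highest knockdown library 1446), and Fosl1 and Egr1 lie near 0.

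Of the JUN proteins, the obligatory partners in AP-1, JUND is the one that is usually already present in resting cells. *Jund* (ENSMUSG00000071076) is transcribed from the plus strand of chromosome 8, 70698949 to 70700616 (GRCm38, as are all gene positions given here). Its normalised counts in non-targeting replicates 1 to 5 were 6663, 6980, 6776, 6101 and 5533. In *Creb3l1*-shRNA1 replicates 1 to 5 they were 4193, 5103, 5104, 4760 and 4868. Every knockdown library lay below every control library. The means were 6410 ± 589 and 4806 ± 374 (SD, n = 5). The level fell by 25.0%, the largest difference among the 8 genes tested. The log2 fold change was -0.42 (SE 0.079, 95% interval -0.60 to -0.23, adjusted p = 0.0021 by edgeR's quasi-likelihood test). The libraries of 1 line differed by more than counting error allows, with coefficients of variation of 9.19% and 7.77% where counting alone gives 1.27% and 1.43%. With the replicate number as a block the log2 fold change was -0.41 and the adjusted p 0.0116, which ended the call.

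*Jund* is also the most GC-rich of the 10 genes, with a transcript GC content of 67.2%, above 99.6% of the genes tested. The tenth of tested genes with the highest GC content had its lowest median deviation from the mean, -0.07 on the log2 scale, in *Creb3l1*-shRNA1 replicate 1, and among control libraries its lowest, -0.01, in replicate 5. These are also the libraries with the lowest *Jund* count of each line. In a fit with library offsets for GC content and length, *Jund* remained lower, with a log2 fold change of -0.34 (edgeR adjusted p = 7.6e-14). An antisense gene, *Gm11175*, covers 919 bases of *Jund* on the other strand, and it had 147 counts over the 10 libraries where *Jund* had 55629.

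*Jun* (ENSMUSG00000052684, chromosome 4, 95049034 to 95052222, minus strand) encodes c-Jun, the JUN protein activated by the JNK kinases. Its normalised counts were 2061, 1899, 1911, 1840 and 1874 in the non-targeting replicates and 1629, 1727, 1690, 1715 and 1684 in the *Creb3l1*-shRNA1 replicates. All knockdown libraries were below all control libraries. The means of 1917 ± 85.1 and 1689 ± 38.0 differed by -0.18 on the log2 scale (SE 0.033, 95% interval -0.25 to -0.12, edgeR adjusted p = 1.0e-05), and the level fell by 11.9%. With GC and length offsets the log2 fold change of *Jun* was -0.13 (edgeR adjusted p = 0.00031). The antisense gene *Junos* shares 689 bases with *Jun* and had 307 counts in all, against 17989 for *Jun*.

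*Junb* (ENSMUSG00000052837, chromosome 8, 84974484 to 84978718, minus strand) encodes the JUN protein that is often induced together with FOS. It had 538, 637, 571, 526 and 487.5 normalised counts in the non-targeting replicates and 523, 563, 553, 546 and 588 in the *Creb3l1*-shRNA1 replicates. The lines overlapped over most of their range. The means were 552 ± 56.1 and 555 ± 23.9, and the log2 fold change was 0.01 with a 95% interval from -0.10 to 0.12 (edgeR adjusted p = 0.90). With GC and length offsets it was 0.10 (edgeR adjusted p = 0.094). *Prdx2*, on the other strand, shares 351 bases with *Junb* and had 22937 counts where *Junb* had 5518, and it was higher in the knockdown line, with a log2 fold change of 0.13 (edgeR adjusted p = 0.0016). Whether strand was used in the counting is not given in the sources used here, so reads from this overlap cannot be assigned with certainty.

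Within the *Creb3l1*-shRNA1 line, replicate 1 had the lowest count of *Jund*, *Jun*, *Junb* and *Fosl2*. Without that library the log2 fold change was -0.37 for *Jund* (edgeR adjusted p = 0.0030) and -0.17 for *Jun* (edgeR adjusted p = 7.2e-05).

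Among the FOS family, *Fosl2* (ENSMUSG00000029135, chromosome 5, 32135801 to 32157842, plus strand), which encodes FRA2, was by far the most abundant. Its normalised counts were 1693, 1627, 1468, 1426 and 1440 in the non-targeting replicates and 1321, 1446, 1413, 1346 and 1399 in the *Creb3l1*-shRNA1 replicates. Control replicates 1, 2 and 3 stood above all knockdown libraries, while control replicates 4 and 5 fell inside their range. The means of 1531 ± 121 and 1385 ± 50.7 gave a log2 fold change of -0.15 (SE 0.043, 95% interval -0.23 to -0.06) with an edgeR adjusted p of 0.0056. This call was the least firm of the 4. The adjusted p was 0.0106 with DESeq2 and 0.0126 by edgeR when libraries were scaled by their totals. Leaving out non-targeting replicate 1 or 2, or *Creb3l1*-shRNA1 replicate 1, 3, 4 or 5, gave adjusted p-values by edgeR of 0.0109 to 0.0283. The call was kept with the replicate block (edgeR adjusted p = 0.0029). With GC and length offsets the log2 fold change was -0.19 (edgeR adjusted p = 1.7e-05).

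*Fosb* (ENSMUSG00000003545, chromosome 7, 19302696 to 19310051, minus strand) encodes a FOS protein known for lasting forms after repeated stimulation. It had 94.5, 123, 72.1, 90.1 and 84.9 normalised counts in the non-targeting replicates and 72.6, 87.8, 83.0, 63.5 and 71.8 in the *Creb3l1*-shRNA1 replicates. The lines overlapped, and control replicate 2 was the highest library. The log2 fold change was -0.30 with a wide 95% interval, from -0.57 to -0.04, and an edgeR adjusted p of 0.048, which misses the threshold of 0.01. Without control replicate 2 it was -0.18 (edgeR adjusted p = 0.25), and with DESeq2 the adjusted p was 0.115.

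*Fos* (ENSMUSG00000021250, chromosome 12, 85473890 to 85477273, plus strand), the prototype of the immediate early genes, had few reads in these cells. The normalised counts were 31.2, 61.5, 63.6, 44.1 and 64.1 in the non-targeting replicates and 55.1, 71.7, 54.3, 36.0 and 56.3 in the *Creb3l1*-shRNA1 replicates. The lowest library of all was control replicate 1 and the highest was knockdown replicate 2, so the ranges of the lines overlapped. The log2 fold change was 0.05 with a 95% interval from -0.33 to 0.43 (edgeR adjusted p = 0.85). The coefficients of variation, 27.7% and 23.2%, were above the 14.0% and 13.4% that counting alone gives, and a change of the size seen for *Jun* or *Egr2* lies inside this interval.

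*Fosl1* (ENSMUSG00000024912, chromosome 19, 5447547 to 5455946, plus strand), which encodes FRA1, had 11 reads in all 5 non-targeting libraries together and 2 in the *Creb3l1*-shRNA1 libraries, and was not tested in the fit. The control libraries had 2, 1, 1, 2 and 5 reads, and the knockdown libraries 0, 0, 0, 1 and 1. Control replicates 2 and 3 and knockdown replicates 4 and 5 tied at 1 read, so the read counts of the lines overlapped, and only scaling by library size set them apart (at least 1.06 against at most 0.948 normalised counts). An exact two-sided permutation of the normalised counts gave an unadjusted p of 0.0079, which rests on this scaling. It is the smallest value possible with 5 libraries per line. The ratio of the lines, knockdown over control, was 0.173, with an exact 95% counting interval from 0.0187 to 0.795. In the fit without a filter on low counts, edgeR's adjusted p over all genes was 0.112. *Ccdc85b*, on the other strand, shares 2767 bases with the gene body of *Fosl1* and had 4040 counts, so these few reads are uncertain.

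Of the EGR family, *Egr2* (ENSMUSG00000037868, chromosome 10, 67535475 to 67542188, plus strand), also known as Krox20, was the abundant member. Its normalised counts were 3266, 3342, 3350, 3448 and 3442 in the non-targeting replicates and 3869, 3869, 3838, 3863 and 3825 in the *Creb3l1*-shRNA1 replicates. The knockdown libraries lay close together and above all control libraries. The means were 3370 ± 76.2 and 3853 ± 20.1, a rise of 14.3%. The log2 fold change was 0.19 (SE 0.026, 95% interval 0.14 to 0.25, edgeR adjusted p = 5.2e-08), it was between 0.18 and 0.20 when any 1 library was left out, and it was called in every one of those fits.

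*Egr1* (ENSMUSG00000038418) was barely detected, with 39 reads in the non-targeting and 37 in the *Creb3l1*-shRNA1 libraries, and was not tested in the fit. The normalised counts were between 5.30 and 12.1 in control and between 4.54 and 11.4 in knockdown libraries. The lines overlapped over nearly the whole range, with an exact two-sided permutation p of 0.63 and a ratio of 0.905 (exact 95% counting interval 0.561 to 1.46). Of the other family members, *Egr3* had at most 5.35 normalised counts in any library and was not tested. *Egr4* had 72.3 to 114 normalised counts in control and 121 to 139 in knockdown libraries, with no overlap, and was higher in the knockdown line, with a log2 fold change of 0.52 (SE 0.11, edgeR adjusted p = 0.00011). The corepressors of EGR proteins, *Nab1* and *Nab2*, had log2 fold changes of -0.01 and -0.10 and did not pass the test (edgeR adjusted p = 0.84 and 0.12).

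*Ier2* (ENSMUSG00000053560, chromosome 8, 84661331 to 84662852, minus strand), a serum-induced early gene that encodes a nuclear protein, had 358, 367, 406, 376 and 354 normalised counts in the non-targeting replicates and 367, 355, 413, 341 and 382 in the *Creb3l1*-shRNA1 replicates. The means were both 372, with an SD of 20.8 and 27.4, and the ranges overlapped almost entirely. The 95% interval of the log2 fold change was from -0.13 to 0.13 (edgeR adjusted p = 0.996). With GC and length offsets the log2 fold change was 0.11 (edgeR adjusted p = 0.14). *Ier2* and *Junb* have a GC content above 96.8% and 98.4% of the genes tested.

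**Figure D2:**
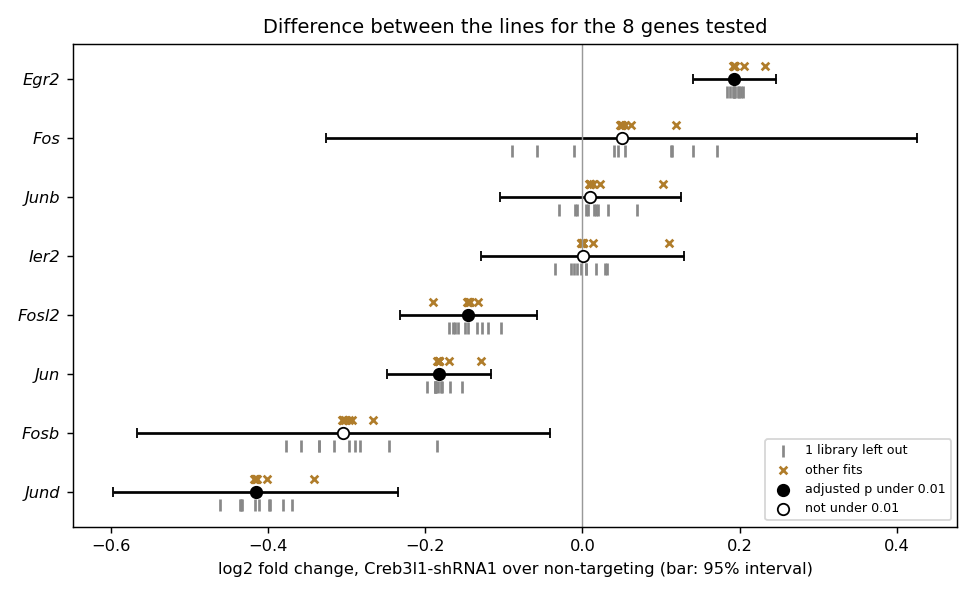
Log2 fold change of the 8 tested genes, Creb3l1-shRNA1 over non-targeting (x axis), with its 95% interval. Filled circles mark an adjusted p under 0.01, grey ticks the fits with 1 library left out and crosses the other fits. Egr2 stays above 0 and Jund, Jun, Fosl2 and Fosb stay below 0 in all of them, whereas Fos, Junb and Ier2 cross 0.

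The levels of the genes were compared per length of annotated exon, in RPKM (reads per kilobase of exon, scaled to library size), because *Jund* and *Egr2* differ in length from *Fosl2*. *Jund* was highest, at 189.5 ± 17.4 RPKM in the non-targeting and 142 ± 11.0 in the *Creb3l1*-shRNA1 line, above 98.6% of the genes tested. *Egr2* followed at 48.9 ± 1.11 and 55.9 ± 0.292, and *Jun* at 29.6 ± 1.32 and 26.1 ± 0.588. The median gene tested was at 6.47 RPKM.

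*Ier2* (12.1 and 12.0 RPKM in control and knockdown) and *Junb* (11.8 and 11.9) came next and overlapped in their range over the libraries. *Fosl2* had 7.80 and 7.06 RPKM. *Fos* (1.11 and 1.15) and *Fosb* (0.734 and 0.598) lay above only 17.7% and 11.8% of the genes tested and overlapped each other. *Egr1* (0.0875 and 0.0797) and *Fosl1* (0.0528 and 0.0090) were lowest and overlapped as well. With these exon lengths, the other neighbours in this order did not overlap in any library. The order depends on the length used, since *Fosl2* has 9680 bases of annotated exon and a longest transcript of 6537 bases.

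The summed level of the 7 FOS and JUN genes was thus mostly *Jund*. It was 240.7 ± 19.5 RPKM in the non-targeting line, with libraries between 212.5 and 260.0, and 188.9 ± 12.2 in the *Creb3l1*-shRNA1 line, with libraries between 168.8 and 199.2. *Jund* made up 78.7% ± 1.04 of the sum in control and 75.2% ± 1.06 in knockdown libraries, with no overlap (77.0% to 79.6% against 73.4% to 76.3%). *Jun* held 12.4% ± 0.904 and 13.9% ± 0.692, with overlap, and *Junb* 4.91% ± 0.230 and 6.30% ± 0.295, without. The 4 FOS genes together held 4.04% ± 0.264 and 4.67% ± 0.252 of the sum, and their ranges overlapped (3.74% to 4.45% against 4.35% to 5.01%). Because the shares add to 100%, a larger share of *Junb* goes with the lower *Jund* level, and the counts of *Junb* itself did not pass the test. *Jund* stood at 6.40 times *Jun* in control and 5.44 times in knockdown libraries, and *Egr2* at 0.205 and 0.297 of the summed AP-1 level. These shares are a description, were not tested, and depend on the exon lengths of the annotation.

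**Figure D3:**
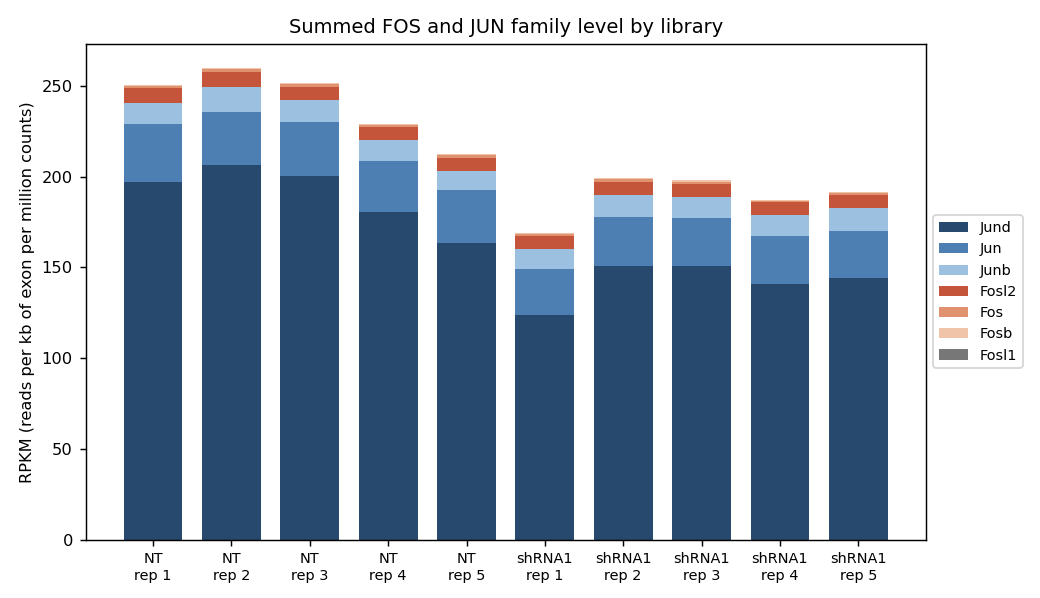
Summed level of the 7 FOS and JUN genes (y axis, RPKM, from 0) in each library, stacked by gene (JUN family in blue, FOS family in red and grey). Jund fills most of each bar, and all 5 Creb3l1-shRNA1 bars (168.8 to 199.2) end below the 5 non-targeting bars (212.5 to 260.0).

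Genes whose profile over the 10 libraries was most like that of a member were found by the root mean square difference of their centred log2 counts, over genes whose mean reached 100 normalised counts. For *Jund* these were *Rnd2*, *Sptbn4* and *2310039H08Rik* (differences of 0.0661, 0.0662 and 0.0682). For *Egr2* they were *Meaf6*, *Tmem248* and *Actr3* (0.0198 to 0.0246), for *Jun* *Plekha6*, *Calu* and *Ccdc34* (0.0272 to 0.0306) and for *Fosl2* *Lpin1*, *Unc5b* and *Syn1* (0.0346 to 0.0472). The closest genes of *Junb* were *Ring1*, *Mpc2* and *Cenpo*, of *Ier2* *Gm1976*, *Rbm27* and *Rwdd4a*, of *Fosb* *Eepd1*, *Rffl* and *Tenm4*, and of *Fos* *Slc18a1*, *Ston2* and *9930104L06Rik*. The difference was largest for *Fos*, where it was 0.253 for the closest gene, against a root mean square deviation of 0.360 of *Fos* itself from its mean.

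The other immediate early genes moved in both directions. Of a list of 42, 35 were tested and 20 were called (57.1%, against the 40.7% of all genes given above), 6 higher and 14 lower, with a median log2 fold change of -0.04. The lowest was *Ier3*, a stress-induced survival gene, with 126 to 159 normalised counts in control and 28.9 to 46.4 in knockdown libraries and a log2 fold change of -1.86 (SE 0.13, edgeR adjusted p = 3.8e-16). Also lower were *Maff* (-0.67), a small MAF factor, *Klf2* (-0.64), *Nfil3* (-0.58) and *Csrnp1* (-0.52), all transcription factor genes. *Dusp5*, which encodes a nuclear ERK phosphatase, was highest, at 1699 ± 43.1 and 2706 ± 120 normalised counts and a log2 fold change of 0.67 (SE 0.033, edgeR adjusted p = 1.2e-20). It was followed by *Trib1* (0.58), a pseudokinase gene, by *Egr4* and by *Nr4a2* (0.26) and *Mcl1* (0.24).

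Family members differed here too. Of the NR4A orphan receptors, *Nr4a1* was lower, at 502 ± 27.5 against 384 ± 27.5 normalised counts and a log2 fold change of -0.39 (SE 0.060), *Nr4a2* was higher, and *Nr4a3* had a log2 fold change of 0.04 with an edgeR adjusted p of 0.82. *Atf3*, a stress-induced factor that can pair with JUN proteins, was lower, at 567 ± 36.7 and 420 ± 26.7 normalised counts, a log2 fold change of -0.43 (SE 0.057, edgeR adjusted p = 2.8e-08).

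Of 21 partner and corepressor genes, 18 were tested, and 6 were higher and 1 lower (38.9% called, near the 40.7% of all genes). Among the higher ones were *Atf7* (log2 fold change 0.46), a CRE-binding partner of JUN, *Jdp2* (0.37), a repressor that pairs with JUN proteins, the acetyltransferase genes *Crebbp* (0.36) and *Ep300* (0.16), and *Ddit3*. With GC and length offsets *Ep300* was at 0.07 and no longer called (edgeR adjusted p = 0.044). The lower one was *Nfe2l1* (-0.15). *Jdp2* had 524 to 628 normalised counts in control and 698 to 787 in knockdown libraries, with no overlap. *Batf3* had a log2 fold change of 0.26 with an edgeR adjusted p of 0.56 and between 0.03 and 0.42 when 1 library was left out, and *Batf* and *Batf2* had at most 0.948 and 2.76 normalised counts in any library.

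SRF and its ELK partners bind the CArG box region of early gene promoters. Of 6 genes of this group, all tested, 4 were called (66.7%, against 40.7% of all genes), all of them higher (against 20.6% of all genes), namely *Elk3* (log2 fold change 0.50), *Elk1* (0.35), *Elk4* (0.23) and *Srf* (0.14), while *Mrtfa* and *Mrtfb* did not pass. *Srf* had 986 to 1085 normalised counts in control and 1084 to 1162 in knockdown libraries and overlapped. The 17 ERK and JNK pathway kinase genes were all tested, and 5 were higher and 2 lower (41.2% called, near the 40.7% of all genes). The JNK genes differed from each other, with *Mapk8* (JNK1) at 0.38, *Mapk10* (JNK3) at 0.18 and *Mapk9* (JNK2) at -0.24 on the log2 scale. With GC and length offsets *Mapk10* was at 0.08 and no longer called (edgeR adjusted p = 0.0115). *Map2k4* (0.20), *Mapk3* (0.18) and *Rps6ka2* (0.17) were higher and *Rps6ka1* (-0.58), which encodes a kinase downstream of ERK, was lower.

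Of 18 genes often given as AP-1 targets, 7 had enough counts to be tested, and the metalloproteinase genes *Mmp1a*, *Mmp3*, *Mmp9*, *Mmp10* and *Mmp13* were not among them. *Plaur*, the urokinase receptor gene, was lower, at 135 ± 17 against 55.4 ± 5.23 normalised counts and a log2 fold change of -1.28 (SE 0.12, edgeR adjusted p = 3.8e-12). The metallothionein genes *Mt2* (-0.83) and *Mt1* (-0.59) and the cytokine gene *Lif* (-0.80) were also lower. *Ccnd1* (0.50), the cyclin D1 gene, and *Vegfa* (0.10) were higher. Without non-targeting replicate 3 *Ccnd1* was at 0.43 and no longer called (edgeR adjusted p = 0.0109). Of the 7, 6 were called (85.7%, against 40.7% of all genes), 2 higher and 4 lower. The median log2 fold change of the 7 was -0.59, against -0.0025 over all genes tested. All these lists were chosen with earlier results of these data known. They are described by their counts, with no test of a list.

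**Figure D4:**
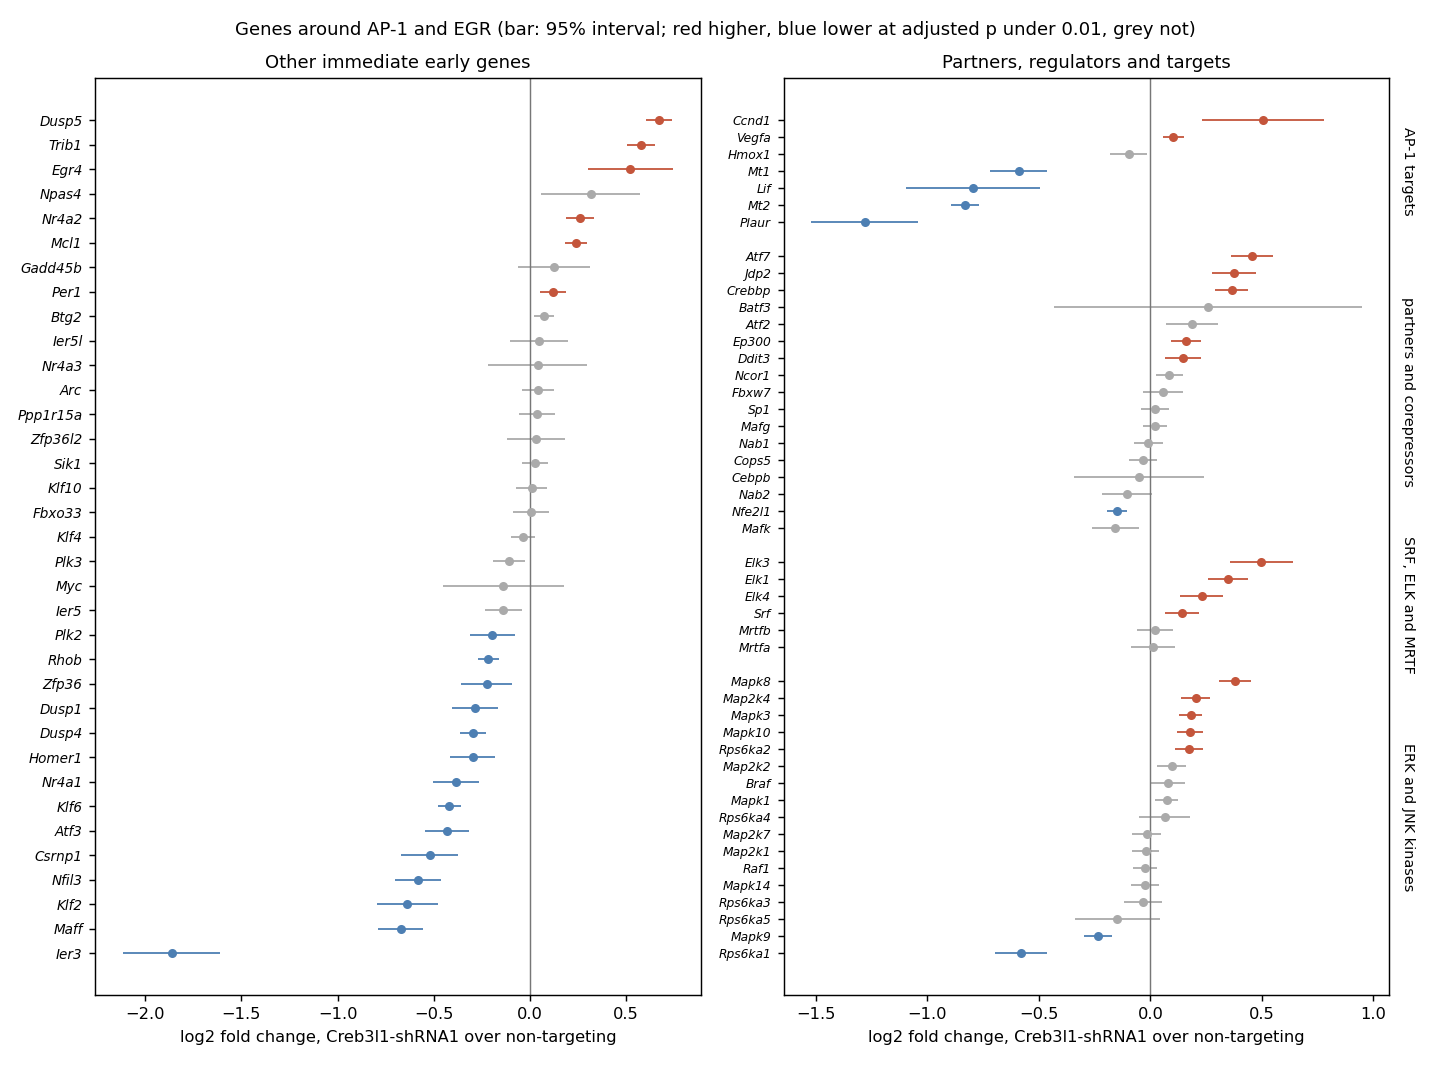
Log2 fold change, Creb3l1-shRNA1 over non-targeting (x axis), with its 95% interval, for tested genes of the list of other immediate early genes (left) and of the lists of AP-1 targets, partners and corepressors, SRF-type factors and kinases (right). Red and blue mark genes higher and lower at an adjusted p under 0.01 and grey the rest. Ier3 (-1.86) and Plaur (-1.28) lie farthest from 0.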

How the data were processed

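Gene expression was profiled in 10 AtT20 libraries, 5 from each line, grouped by the sample labels. Per the study's methods, poly(A) RNA was sequenced in pairs from stranded libraries, and STAR and featureCounts aligned and counted the reads on GRCm38 with an Ensembl annotation. The strand setting is not given in the sources used here. The authors deposited whole-number counts per gene without normalisation (17420698 to 22205107 per library), and precision is lowest for genes with few counts. Symbols were paired with 53620 of 53801 identifiers, and positions, exon lengths and GC content were taken from a GENCODE annotation of GRCm38.

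The lines were compared with edgeR 4.0.16 under R 4.3.3 (filterByExpr, TMM factors, quasi-likelihood test with a robust prior and without covariates), with Benjamini-Hochberg adjustment over all 14336 genes tested. The study's threshold of 0.01 was used. The SE is the absolute log2 fold change over the square root of F. On simulated counts for this comparison (14336 genes), the test called 90 of 100 genes changed by 0.5 on the log2 scale, 100 of 100 changed by 1, and 1 of 14034 unchanged genes. The simulated spread followed edgeR's trend with expression level, so genes that vary more than the trend were not represented. The changed genes were drawn from those above a low count. No member tested differed by as much as 0.5, so smaller differences were not covered. Promoters were taken from RefSeq where the entry began within 100 bases of the start of a principal transcript. The entries of *Fosl2* and *Jund* began farther away, and *Fosl1* and *Ier2* had no entry.

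Besides the 10 genes, *Creb3l1* and *Pomc*, the rule named up to 5 genes called in each direction from each list, the NR4A, EGR, NAB and BATF families, *Atf3*, *Srf* and *Jdp2*, and the 3 closest profiles of each tested gene. Other genes were named after their values were seen, and 1 gene of the partner list, included in its counts, is not reported here. The members, lists and rule were chosen with earlier results of these data known. Alternatives were DESeq2 1.42.0, RLE factors, library totals, no filter, at least 10 counts in every library, a replicate block, GC and length offsets (5 degrees of freedom each), an adjusted p under 0.05, at least 1.5-fold, each library left out and, added after seeing the data, no robust prior. Same-numbered replicates did not deviate together (r from -0.06 to 0.04), so the numbers were not taken to pair the libraries.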

Additional observations from a re-analysis of the deposited data

Results flagged for a closer look

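Dixon's test at its 95% critical value was applied to the lowest and the highest of the 5 libraries of each line, for each gene named and each measure of library size. In 6 groups 1 library stood apart, where chance gives about 1 in 20, or 5.3 groups. *Fosl1* had 4.72 normalised counts (5 reads) in non-targeting replicate 5, against 1.06 to 2.01 in the other controls. *Ep300* had 2072 in non-targeting replicate 4, against 2221 to 2256. *Ccnd1* had 81.3 in *Creb3l1*-shRNA1 replicate 2, against 95.4 to 100.4. *Gm42418* took 4.13% of the counts in non-targeting replicate 3, against 0.107% to 0.129%, and the TMM factor of that library was 0.953, against 1.005 to 1.007. In *Creb3l1*-shRNA1 replicate 1 the same factor was 0.9997, where the other 4 had 1.005 to 1.006.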

How the results depend on the processing

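The calls for *Egr2* and *Jun* had the same direction and side of the threshold under every alternative that kept the fold unrestricted. *Jund* lost its call with the replicate block (adjusted p = 0.0116 by edgeR) and *Fosl2* with DESeq2 and library totals (log2 fold change -0.14 and -0.13) and without any of 6 libraries. With GC and length offsets the calls of *Ep300* (0.07) and *Mapk10* (0.08) were lost, and without non-targeting replicate 3 that of *Ccnd1* (0.43), and the cause was not tested. The replicate block changed no other call of a named gene. At least 1.5-fold left 1108 of the 5837 genes called, 0 of the 10 genes higher and 0 lower, and 4 other immediate early genes (1 higher, 3 lower). At an adjusted p under 0.05, 7209 genes were called, and *Fosb* joined the lower genes, though not with DESeq2 (adjusted p = 0.115) or without non-targeting replicate 2 (0.25 by edgeR). The other fits called 5542 (DESeq2) to 6143 (GC and length offsets) genes, 1 of the 10 genes higher, 2 or 3 lower, and 19 to 21 other immediate early genes. Leaving out 1 library gave 5408 to 6026 genes in all, again 1 higher and 2 or 3 lower among the 10, and 18 to 21 other immediate early genes, 6 higher and 12 to 15 lower. Direction changed only for genes that were not called. The log2 fold change without 1 library ranged from -0.090 to 0.17 for *Fos*, from -0.030 to 0.069 for *Junb*, from -0.035 to 0.031 for *Ier2*, from -0.033 to 0.086 for *Nr4a3* and from -0.027 to 0.023 for *Nab1*. *Ier2* was at -8.7e-05 with RLE factors, -0.0014 with at least 10 counts and -0.0017 with the replicate block, and with GC and length offsets it was at 0.11 and *Junb* at 0.10, neither called. *Nab1* was at 0.0036 with library totals and *Nr4a3* at -0.023 with GC and length offsets. Depth limits *Egr1*, *Fosl1*, *Fos* and *Fosb* most.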
